A study of Homo sapiens with 12 samples.

Results

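THP1 monocytes co-cultured with EGCG-treated senECs were compared with THP1 monocytes co-cultured with control ECs, which asks what still differs from a non-senescent co-culture once the senescent endothelium has been treated with EGCG. The 6 libraries of these 2 groups were chosen by their labels from 12 labelled libraries, and the genes were the 25873 of 58735 listed that held at least 10 counts in total over the 12. THP1 is a human monocytic leukemia cell line (genotype WT), and the ECs were human umbilical vein endothelial cells (HUVECs). The study's methods name the vehicle DMSO as the treatment of control ECs, and write ± DMSO for the co-culture plates. EGCG-treated senECs had received 10 µM etoposide, a topoisomerase II inhibitor that causes DNA breaks, and afterwards 100 µM EGCG. Untreated senECs had received etoposide only, and the mono-culture was THP1 without ECs. In each co-culture 400000 THP1 cells sat for 24 h in the upper chamber of a transwell insert with pores of 1 µm, above 500000 ECs that had been washed and replated in complete medium. All 12 libraries, mono-culture included, came from THP1 cells that were afterwards removed and exposed to 100 ng/ml LPS for 2 h. Each group held 3 libraries, numbered 1, 2 and 3 with control ECs and 1, 2 and 5 with EGCG-treated senECs. The cells reached each other only through soluble or vesicular material, and the monocytes were of a single line. The labels do not say whether replicates were separate cultures, so p-values cover the spread between these libraries, which may be technical.

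LPS binds TLR4 with CD14 and MD-2 on the monocyte surface, and signalling through MYD88 and the kinase IKKβ releases NF-κB to switch on cytokine and chemokine genes such as IL1B, CXCL8 and TNF. A slower branch through TRIF and IRF3 induces interferon β and then the interferon-stimulated genes. Senescent endothelial cells secrete cytokines, chemokines, matrix proteins and proteases, collectively called the senescence-associated secretory phenotype, and monocytes primed by such factors can answer LPS differently. EGCG is the main catechin of green tea and is known as an antioxidant polyphenol with anti-inflammatory activity.

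The deposited values were raw read counts. Control EC libraries held 18456396 to 22092600 counts and EGCG-treated senEC libraries 15997927 to 18736410. Levels are given as CPM, the counts scaled to an equal library size by TMM, so they compare libraries for 1 gene and not genes with each other. Among monocyte markers, 18 of 19 reached 1 CPM, and their summed level was 3522 to 3868 CPM with control ECs and 3821 to 4280 CPM with EGCG-treated senECs. Defining endothelial markers had low counts over the 6 libraries, with 0 to 1 counts of CDH5 and ESM1, 0 to 2 of PLVAP, 0 to 3 of EMCN, 0 to 4 of KDR, 0 to 6 of CLDN5, 0 to 10 of TEK and 8 to 37 of VWF. Control EC replicate 2 stood apart in RNAs that poly(A) selection usually removes. It held 3547 CPM of the mitochondrial ribosomal RNA MT-RNR1, where the other 5 libraries held 296 to 804 CPM.

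No gene separated the groups once all tested genes were taken into account. The quasi-likelihood test of edgeR, fitted to all 12 libraries, called 0 of 25873 genes at a Benjamini-Hochberg adjusted p below 0.05 (0% called), and the smallest adjusted p was 0.979. At an unadjusted p below 0.05 the same test held 1177 genes (4.55% of those tested), of which 446 were higher with EGCG-treated senECs (1.72%) and 731 lower (2.83%). DESeq2 also called 0 genes and held 883 at an unadjusted p below 0.05. Of the 14407 genes with a mean of at least 1 CPM over the 6 libraries, 551 (3.82%) were at an unadjusted p below 0.05, and 1464 (10.2%) had groups whose libraries did not overlap. Without control EC replicate 2, the library with the ribosomal RNA excess, 0 genes were called and the number at an unadjusted p below 0.05 was 706.

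Libraries of different groups were as far apart as libraries of 1 group. The median absolute log2 difference over genes was 0.14 to 0.19 for the 6 pairs of libraries within a group, and 0.12 to 0.19 for the 9 pairs that crossed the groups. Both kinds of pair had a median of 0.16. Every pair within a group joined different replicate numbers, whereas 2 of the crossing pairs shared a number. These stood at 0.12 for replicate 1 and 0.17 for replicate 2, and the other 7 at 0.13 to 0.19. Deviations shared across groups would shorten some crossing distances, and their part was not tested. The median log2 difference between the group means was 0.00 over all tested genes and 0.03 over genes at 1 CPM or more, and the mean was higher with EGCG-treated senECs for 50% of the former and 56% of the latter.

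The intervals show which differences these libraries could have held. For 87.6% of genes at 1 CPM or more, the 95% interval of the edgeR difference lay within a 2-fold change in either direction, and for 65.3% it lay within 1.5-fold. The share within 2-fold was 54.4% for genes at 1 to 5 CPM, 96.9% at 5 to 20 CPM, 99.5% at 20 to 100 CPM and 99.5% at 100 CPM or more. A 2-fold change of a well-expressed gene was thus outside the interval for nearly all such genes, while for genes under 5 CPM it often was not. Well-expressed genes that varied widely between libraries could be exceptions, and IL1B was one.

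**Figure D1:**
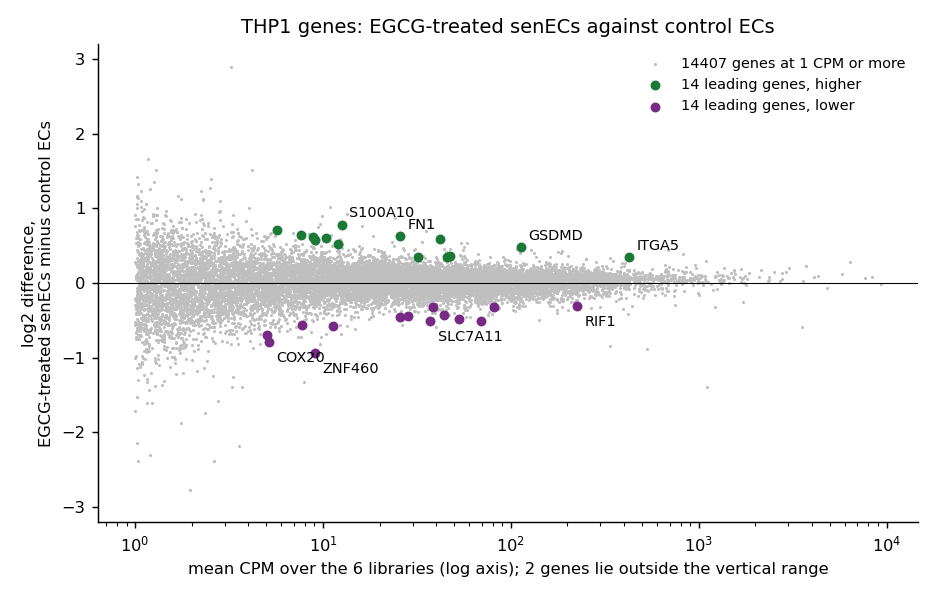
Each grey point is 1 of the 14407 genes at 1 CPM or more, with its mean CPM over the 6 libraries on a log axis and the edgeR log2 difference, EGCG-treated senECs minus control ECs, on the vertical axis. The 14 leading genes in each direction (green higher, purple lower) lie between 0.34 and 0.78 or between -0.94 and -0.31, among other genes of like size, and the spread widens towards low CPM.

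The inflammatory genes that the study followed by qRT-PCR or named in its text did not pass the test, and their spread between libraries was much wider than the difference between groups. IL1B, which encodes the cytokine interleukin-1β, stood at 142, 231 and 672 CPM with control ECs (replicates 1, 2 and 3) and at 156, 260 and 747 CPM with EGCG-treated senECs (replicates 1, 2 and 5). CXCL8, the neutrophil-attracting chemokine, stood at 243, 406 and 704 CPM against 251, 408 and 771 CPM. For both genes, the lowest library was replicate 1 and the highest replicate 3 or 5, in either group. The edgeR log2 difference was 0.16 ± 0.62 (SE) for IL1B, with an interval from -1.15 to 1.46, and 0.08 ± 0.42 for CXCL8, with an interval from -0.79 to 0.95 (adjusted p of 0.979 or more for both). The IL1B interval thus left room for a 2-fold change in either direction.

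IL23A, the specific chain of interleukin-23, stood at 10.5, 15.6 and 28.3 CPM with control ECs and at 7.62, 15.6 and 29.1 CPM with EGCG-treated senECs. IL12B, the chain that interleukin-12 and interleukin-23 share, stood at 0.72, 1.58 and 3.89 CPM against 1.83, 1.46 and 4.12 CPM. IL6, a cytokine of the acute phase response, was close to the detection limit with 1, 5 and 14 counts against 5, 4 and 6. The groups overlapped for each of these genes, and the log2 differences were -0.05 ± 0.44 for IL23A, 0.29 ± 0.51 for IL12B and -0.21 ± 0.88 for IL6. The IL6 interval ran from -2.05 to 1.64, so it left room for a 2-fold change of IL6 in either direction.

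CCL5, a chemokine for T cells and monocytes, stood at 43.4, 50.2 and 86.5 CPM with control ECs and at 53.4, 63.9 and 85.1 CPM with EGCG-treated senECs. TLR4, the LPS receptor, stood at 22.7, 34.9 and 47.2 CPM against 21.1, 41.4 and 55.3 CPM. NFKB1, which encodes the p105 precursor of the NF-κB subunit p50, stood at 167, 213 and 285 CPM against 176, 240 and 354 CPM. Again the groups overlapped, with log2 differences of 0.17 ± 0.25, 0.17 ± 0.27 and 0.21 ± 0.25 in that order. The sign of each of these 8 genes' differences depended on the libraries used. Without EGCG-treated senEC replicate 5 the log2 difference of IL1B was -0.74 and that of CXCL8 -0.45, and without control EC replicate 3 they were 1.06 and 0.56. The library left out was each time the highest of its group for both genes, so only the mean of that group fell. Such a change of sign shows the weight of a single library and does not give the direction of the group difference.

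**Figure D2:**
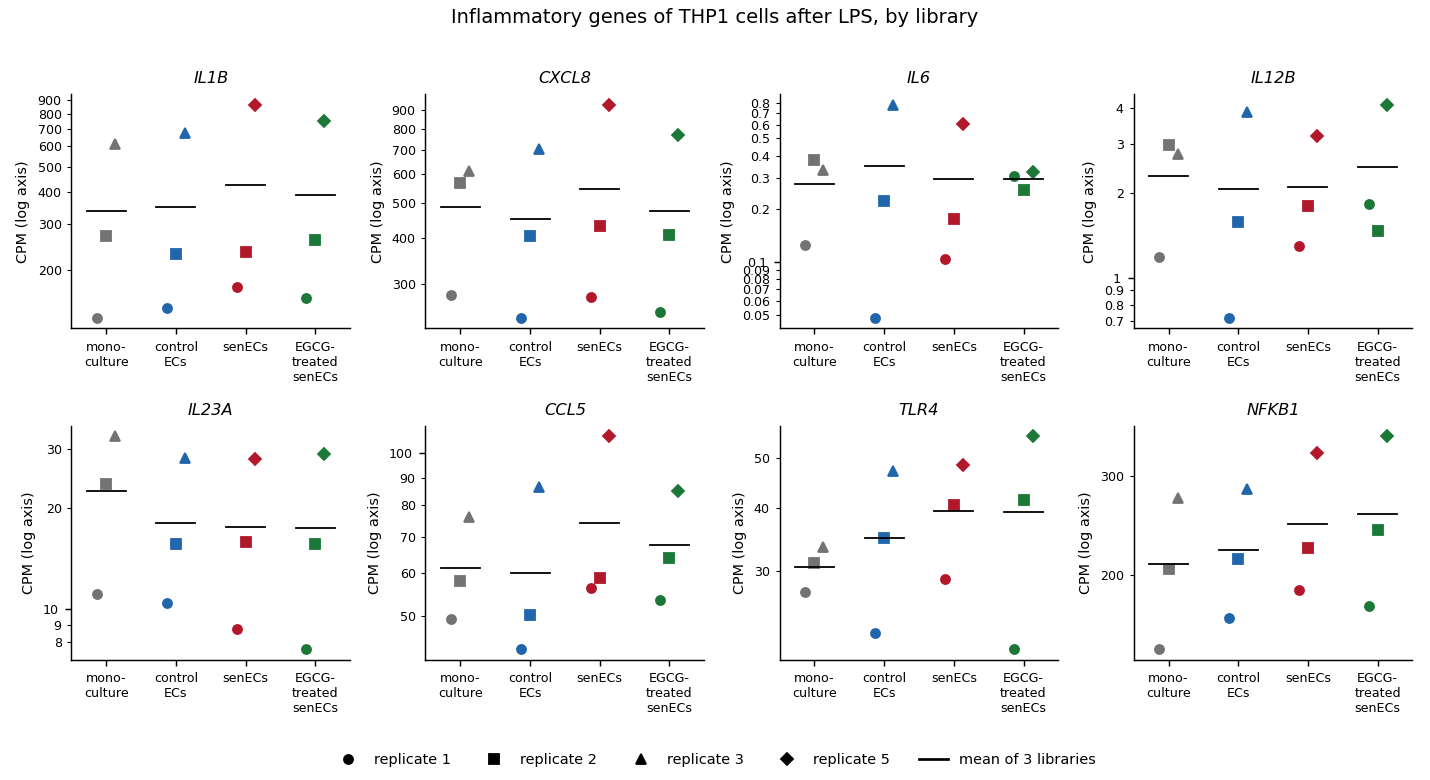
CPM (log axis) of 8 inflammatory genes in the 12 libraries, with a symbol for each replicate number and a bar at the mean of the 3 libraries of a group. Replicate 1 is the lowest library for IL1B, CXCL8, IL23A, CCL5, TLR4 and NFKB1 in both groups compared, and the ranges of control ECs and EGCG-treated senECs overlap for all 8 genes.

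As a group, LPS response cytokines and chemokines had a positive median, whose sign depended on single libraries. Of 26 list members at 1 CPM or more, 21 had the higher mean with EGCG-treated senECs and 5 the lower, with a median log2 difference of 0.14 against 0.03 over all genes at that level. Among all genes at that level, 56% had the higher mean. The list median was -0.32 when EGCG-treated senEC replicate 5 was left out, and -0.04 or 0.60 when replicate 1 or 3 of the control ECs was. Each of these libraries was the highest or lowest of its group in the mean level of the list. Only 1 member was at an unadjusted p below 0.05 (higher, against 1.74% of genes at 1 CPM or more). That member was CXCL10, an interferon-induced chemokine for activated T cells, at 2.40, 2.46 and 3.17 CPM with control ECs and 3.17, 5.97 and 6.96 CPM with EGCG-treated senECs. The groups only just met, since the highest control library and the lowest EGCG library both rounded to 3.17 CPM, and the log2 difference was 1.01 ± 0.33 (unadjusted p = 0.00608, adjusted p = 0.979, edgeR). IL18, a cytokine of the interleukin-1 family, stood at 6.67, 6.99 and 9.23 CPM against 6.64, 10.2 and 16.1 CPM.

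Signalling genes between TLR4 and the cytokines behaved in the same range. Of 32 members of the TLR4 and NF-κB list at 1 CPM or more, 20 were higher in mean and 12 lower, with a median of 0.11 that became -0.07 without EGCG-treated senEC replicate 5 and close to 0 without control EC replicate 1. None was at an unadjusted p below 0.05, and 3 had groups that did not overlap, all higher (4.8% of genes at that level were higher without overlap). One of them was BCL3, an IκB-like partner of NF-κB p50 and p52, at 102, 98.9 and 113 CPM with control ECs and 129, 117 and 132 CPM with EGCG-treated senECs, a log2 difference of 0.27 ± 0.13 (unadjusted p = 0.0531). IKBKB, which encodes the kinase IKKβ, stood at 123, 128 and 116 CPM against 151, 129 and 129 CPM. NFKB2, the precursor of p52, stood at 64.5, 80.2 and 102 CPM against 88.7, 96.1 and 124 CPM, with overlapping groups. Immediate early and feedback genes had a median of 0.06, with 24 of 33 higher in mean. This median was -0.07 without EGCG-treated senEC replicate 5 and 0.25 without control EC replicate 3. FOSB, a subunit of the AP-1 transcription factor, had 6.33, 7.21 and 8.61 CPM against 12.1, 9.47 and 9.37 CPM.

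Interferon-stimulated genes had the highest median of the gene lists apart from lymphocyte markers, and 1 library decided it. Of 33 members at 1 CPM or more, 30 had the higher mean with EGCG-treated senECs and 3 the lower, with a median log2 difference of 0.21. None passed the adjusted test, and 6 were at an unadjusted p below 0.05, all higher (against 1.74% of genes at that level). MX1, a GTPase that blocks virus replication, stood at 5.52, 5.98 and 10.2 CPM with control ECs and at 5.85, 9.85 and 28.1 CPM with EGCG-treated senECs. IFI6, an antiviral membrane protein, stood at 21.9, 28.3 and 31.5 CPM against 25.5, 40.0 and 53.7 CPM, and EPSTI1 at 0.67, 1.54 and 2.06 CPM against 0.73, 2.48 and 7.82 CPM. In each case EGCG-treated senEC replicate 5 was the highest of the 6 libraries, while replicate 1 lay within the control range. The log2 differences were 1.02 ± 0.39 for MX1 (unadjusted p = 0.0161), 0.55 ± 0.22 for IFI6 (unadjusted p = 0.0218) and 1.39 ± 0.56 for EPSTI1 (unadjusted p = 0.0229), all with an adjusted p of 0.979 in edgeR. Without EGCG-treated senEC replicate 5 they were 0.12, 0.26 and 0.18, the list median was -0.04, 12 members were higher and 21 lower in mean, and 1 member was at an unadjusted p below 0.05. Without control EC replicate 1, 1 member was also at that level, with a list median of 0.20. With senECs not treated with EGCG, the 33 members had a median log2 difference from control ECs of 0.06.

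The interferon-stimulated response element is the DNA sequence bound by the transcription factors that interferon activates. The letters GAAANNGAA of its core, a search chosen after the gene values were seen, were searched on both strands in the 250 bases before the RefSeq transcription start (build GRCh38.p14). They were found in 16 of 26 promoters matched for the 35 listed interferon-stimulated genes (61.5%) and in 1927 of 27305 promoters of all genes (7.06%). The first share covers all matched members of a list written by hand, whatever their values. It describes the list and not a difference between these groups. The promoter sequences of IFI6 and EPSTI1 are shown, which were among the list members at an unadjusted p below 0.05 and held a match. HERC5 also met this rule, with 3 matches, and its sequence is not shown. A single window was searched for each gene, and that of MX1 held no match. Each is written 5′ to 3′ in the direction of the gene, with matches in capitals. The IFI6 stretch is chr1:27672247-27672378 (minus strand, 186 to 55 bases before the start) and has 3 matches, and the EPSTI1 stretch is chr13:42992253-42992321 (minus strand, 80 to 12 bases before the start) and has 1. A match is a description of the letters and says nothing about binding in these cells.
IFI6: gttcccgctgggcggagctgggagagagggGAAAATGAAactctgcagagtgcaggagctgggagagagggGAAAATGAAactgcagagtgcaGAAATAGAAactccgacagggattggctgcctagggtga
EPSTI1: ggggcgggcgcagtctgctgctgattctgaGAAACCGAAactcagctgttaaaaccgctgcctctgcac

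Genes of cholesterol synthesis and uptake were the list with the lowest median. Of 30 members at 1 CPM or more, 24 had the lower mean with EGCG-treated senECs and 6 the higher, with a median log2 difference of -0.15, and 5 were lower without overlap (5.37% of genes at that level were). CYP51A1, the sterol 14-demethylase, stood at 5.57, 5.18 and 4.39 CPM with control ECs and at 4.39, 3.88 and 1.34 CPM with EGCG-treated senECs, and STARD4, a cholesterol carrier, at 104, 117 and 128 CPM against 84.7, 95.2 and 112 CPM. The CYP51A1 groups met at 4.39 CPM without overlap, and the STARD4 groups overlapped. The log2 differences were -0.67 ± 0.32 and -0.25 ± 0.12, and that of CYP51A1 was -0.29 without EGCG-treated senEC replicate 5 and -0.99 without replicate 1. The list median was -0.07 without EGCG-treated senEC replicate 5 and -0.23 without replicate 2. The same members had a median of -0.25 in untreated senECs against control ECs, which shares the control libraries, and of 0.11 in EGCG-treated senECs against untreated senECs.

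**Figure D3:**
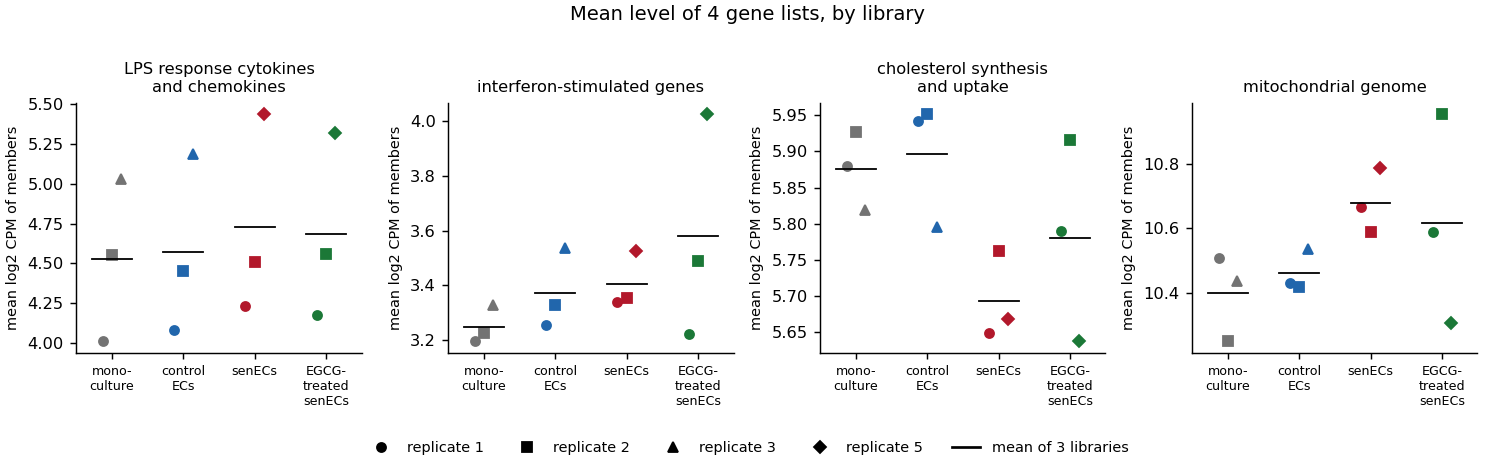
Mean log2 CPM (2 CPM added first) of the members of 4 gene lists in each of the 12 libraries, with a symbol for each replicate number and a bar at the mean of the 3 libraries of a group. EGCG-treated senEC replicate 5 is the highest library for interferon-stimulated genes (4.03, where control EC libraries lie between 3.25 and 3.54), and for cholesterol synthesis the EGCG-treated libraries lie between 5.64 and 5.92 and the control EC libraries between 5.80 and 5.95.

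The genes with the smallest unadjusted p were next taken in each direction, among genes of at least 5 CPM whose groups did not overlap. They were chosen by these libraries, so their values describe the far ends of the comparison, and each had an adjusted p of 0.979 or more in that test. In other fits some of them were called. GSDMD, BRCA2 and RFX2 were called with the replicate number as a block in both edgeR and DESeq2, S100A10 with the block in edgeR, and ITGA5 and TROVE2 with it in DESeq2. When every gene with a count was tested, FN1, GSDMD, S100A10, RFX2, SLC7A11, BRCA2 and ZNF460 were called. Among the 14 higher genes the fold difference was 1.27 to 1.72, and among the 14 lower genes it was 0.52 to 0.81.

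FN1, which encodes the matrix glycoprotein fibronectin (GENCODE v29, chr2:215360440-215436172, minus strand), stood at 19.5, 23.5 and 17.6 CPM with control ECs and at 25.3, 32.8 and 35.7 CPM with EGCG-treated senECs. Its log2 difference of 0.63 ± 0.14 had the smallest unadjusted p of the 28 genes (0.000275). ITGA5, the α5 chain of the fibronectin receptor, stood at 389, 352 and 386 CPM against 492, 456 and 482 CPM, a log2 difference of 0.34 ± 0.10. S100A10, the partner of annexin A2 in plasminogen binding, had the widest fold of the higher genes, at 7.10, 9.89 and 10.9 CPM against 13.6, 16.5 and 17.8 CPM. SIGLEC10, an inhibitory receptor for sialic acid, stood at 7.96, 9.67 and 7.06 CPM against 9.99, 15.1 and 12.5 CPM. NFAM1, a surface receptor with an ITAM motif, stood at 40.1, 44.2 and 40.0 CPM against 51.2, 55.8 and 52.8 CPM. ACVRL1, the type I receptor ALK1 of the BMP9 pathway, stood at 9.88, 9.80 and 10.1 CPM against 13.6, 13.03 and 16.1 CPM. LOXL3, a lysyl oxidase that acts on matrix proteins, stood at 7.72, 4.88 and 8.50 CPM against 10.4, 9.53 and 12.3 CPM.

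GSDMD, whose cleaved protein forms the pores through which interleukin-1β leaves the cell, stood at 92.2, 93.5 and 97.3 CPM with control ECs and at 128, 124 and 142 CPM with EGCG-treated senECs. Its groups lay far apart relative to their spread, with a log2 difference of 0.48 ± 0.12 and an interval from 0.22 to 0.74. RFX2, a transcription factor, stood at 34.0, 27.7 and 39.0 CPM against 60.4, 45.7 and 44.8 CPM, and DUSP14, a dual-specificity phosphatase, at 7.72, 7.34 and 6.89 CPM against 11.6, 10.9 and 10.3 CPM. The other higher genes were RTL5, SLC45A3, RHBDD2 and RAP2B, with log2 differences of 0.71, 0.64, 0.34 and 0.35. With untreated senECs, GSDMD stood at 131 ± 23.3 CPM, FN1 at 30.2 ± 2.01 CPM and ITGA5 at 435 ± 32.4 CPM (SD, n = 3 each). The log2 differences of untreated senECs from the same control ECs were 0.48, 0.58 and 0.21 for these genes, and those of EGCG-treated from untreated senECs were 0.00, 0.05 and 0.13.

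SLC7A11, the cystine carrier that supplies glutathione synthesis and is a target of NRF2 and ATF4, led the lower genes (GENCODE v29, chr4:138164097-138242349, minus strand). It stood at 41.9, 46.6 and 43.1 CPM with control ECs and at 29.9, 35.0 and 27.5 CPM with EGCG-treated senECs. The log2 difference was -0.51 ± 0.14 with an interval from -0.80 to -0.23 (unadjusted p = 0.00126). It stood at 37.0 ± 6.30 CPM with untreated senECs (SD, n = 3) and at a mean of 34.0 CPM in mono-culture.

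BRCA2, a protein of homologous recombination, stood at 63.4, 55.8 and 66.1 CPM with control ECs and at 48.2, 40.9 and 43.3 CPM with EGCG-treated senECs. RAD50, of the complex that senses double-strand breaks, stood at 6.91, 6.19 and 5.50 CPM against 4.51, 3.88 and 3.11 CPM, and RIF1, which steers repair away from end resection, at 240, 240 and 266 CPM against 201, 195 and 207 CPM. The groups did not overlap for any of them, as the choice required, and the log2 differences were -0.48 ± 0.14, -0.70 ± 0.22 and -0.31 ± 0.10. CLOCK, a core transcription factor of the circadian clock, stood at 29.3, 30.8 and 28.95 CPM against 21.8, 23.5 and 19.6 CPM. COX20, an assembly factor of cytochrome c oxidase, stood at 5.80, 7.91 and 5.84 CPM against 3.72, 3.69 and 3.91 CPM. Others were TROVE2, RBM41, FNBP1L, ZNF678, ZNF480 and ZNF460, with log2 differences of -0.33, -0.57, -0.56, -0.42, -0.32 and -0.94. ZNF460 had 7.48, 18.7 and 9.45 CPM with control ECs against 6.46, 5.65 and 6.54 CPM, and its log2 difference was -0.45 without control EC replicate 2.

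**Figure D4:**
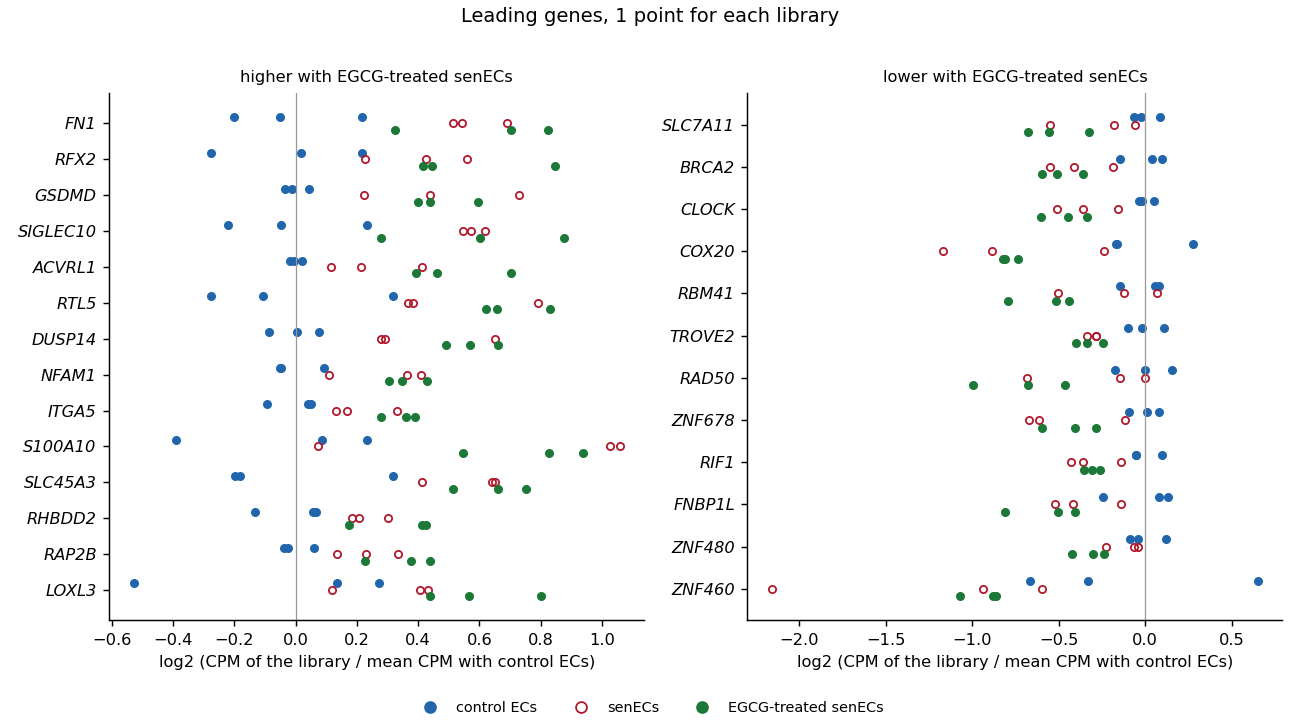
Each row is 1 of 14 higher (left) or 12 lower (right) leading genes, and each point is 1 library, placed by its log2 ratio to the mean CPM with control ECs. Control EC (blue) and EGCG-treated senEC (green) points do not overlap, which is how the genes were chosen, and open red points are the untreated senEC libraries.

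The leading genes differed in length and base composition. The median gene model, counting all exonic bases, was 4909 bases with 56.5% GC for the higher genes and 9373 bases with 38.1% GC for the lower genes, where all protein-coding genes at 1 CPM or more had medians of 5162 bases and 48.1%. The same held outside the leading genes. With genes cut into 5 classes of equal size by length, from the shortest to the longest, the median log2 difference went from 0.08 to -0.05, and the share of genes lower without overlap went from 1.15% to 12.8%. From the lowest to the highest of 5 classes of GC content the median log2 difference went from -0.05 to 0.09. In untreated senECs against the same control ECs, the medians went from 0.15 to -0.08 with length and from -0.05 to 0.10 with GC content. With a per-library offset for length and GC content, edgeR called 0 genes and held 1088 at an unadjusted p below 0.05.

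Genes of energy metabolism and protein turnover had positive medians whose size rested on single libraries. All 13 protein-coding genes of the mitochondrial genome had the higher mean with EGCG-treated senECs, with a median log2 difference of 0.19. The median was -0.01 without EGCG-treated senEC replicate 2, 0.32 without replicate 5 and 0.36 with replicates 1 and 2 of each group only. With a replicate block it was 0.25 and 10 of the 13 were at an unadjusted p below 0.05, all higher. Of all 25873 tested genes, 1310 were at that level with the block. MT-ND4, a subunit of respiratory complex I, stood at 5626, 5943 and 5767 CPM with control ECs and at 6664, 9207 and 5218 CPM with EGCG-treated senECs, so replicate 2 was above and replicate 5 below all control libraries. MT-ATP8, of ATP synthase, was the only member at that level without the block, at 20.2, 17.1 and 19.8 CPM against 26.6, 26.1 and 19.8 CPM. Nuclear genes of oxidative phosphorylation had a median of 0.06 (44 of 53 higher in mean), cytosolic ribosomal proteins 0.05 (53 of 62) and the proteasome 0.07 (28 of 31), with 0 members at an unadjusted p below 0.05 in any of the 3 lists. Their medians in untreated senECs against control ECs were 0.21, 0.24 and 0.20, and in EGCG-treated against untreated senECs -0.14, -0.19 and -0.12. Untreated senEC replicate 5 was the highest library for each list, with means (log2 of CPM plus 2) of 7.02, 9.58 and 7.26. Untreated senEC replicates 1 and 2 held 6.60 and 6.67, 8.99 and 9.08, and 6.85 and 6.96. Control EC libraries held 6.45 to 6.66, 8.83 to 9.20 and 6.74 to 6.98. The medians without senEC replicate 5 were not computed for these comparisons. In EGCG-treated senECs against control ECs, the medians of oxidative phosphorylation and of the ribosome were between -0.05 and -0.01 without replicate 2 of either group. Without control EC replicate 3 the 3 medians of that comparison were 0.12, 0.15 and 0.14.

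Stress and damage programs held no member that passed the test either. In the NRF2 and antioxidant list, 23 of 33 members were higher in mean with a median of 0.06, and SLC7A11 was the only member at an unadjusted p below 0.05 (lower, against 2.08% of genes at 1 CPM or more). TXNRD1, thioredoxin reductase, stood at 188, 195 and 211 CPM with control ECs and 187, 174 and 172 CPM with EGCG-treated senECs, and OSGIN1 at 2.30, 2.07 and 2.61 CPM against 2.99, 4.51 and 2.62 CPM. Neither pair of groups overlapped, TXNRD1 being the lower and OSGIN1 the higher of them with EGCG-treated senECs, at log2 differences of -0.16 ± 0.09 and 0.53 ± 0.26, the latter 0.27 without EGCG-treated senEC replicate 2. Heat shock and unfolded protein response genes had a median of 0.08, with 28 of 30 higher in mean, and DNAJB1, a cochaperone of HSP70, stood at 130, 112 and 115 CPM against 146, 131 and 133 CPM. DNA damage and senescence genes were level, with 13 higher and 10 lower in mean, a median of 0.02 and none without overlap. DDB2, a p53 target that recognises ultraviolet lesions, stood at 18.1, 14.1 and 15.3 CPM against 20.2, 16.8 and 20.6 CPM.

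Proliferation genes of this dividing line were also level. S phase genes had a median log2 difference of 0.05 (22 of 29 higher in mean) and G2/M genes 0.02 (19 of 31), with 0 members at an unadjusted p below 0.05. TYMS, thymidylate synthase, stood at 63.9, 58.8 and 62.0 CPM with control ECs and 73.7, 69.3 and 61.7 CPM with EGCG-treated senECs, and BIRC5, the mitotic protein survivin, at 153, 142 and 152 CPM against 164, 181 and 148 CPM. Both pairs of groups overlapped. In the glycolysis and hypoxia list 19 of 26 members were higher in mean, with a median of 0.06. HK2, a hexokinase, was its only member at an unadjusted p below 0.05, at 41.7, 39.8 and 42.1 CPM against 31.9, 34.2 and 36.2 CPM (log2 difference -0.27 ± 0.12, unadjusted p = 0.0407). SLC2A1, the glucose carrier GLUT1, stood at 249, 235 and 239 CPM against 212, 220 and 209 CPM.

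The lists on monocyte function had positive medians. Adhesion, migration and matrix genes had 20 of 28 members higher in mean and a median of 0.14, which was 0.02 without EGCG-treated senEC replicate 5 or control EC replicate 1 and 0.24 without EGCG-treated senEC replicate 1. Its 2 members at an unadjusted p below 0.05 (higher, against 1.74% of genes at 1 CPM or more) were FN1 and ITGA5, both already among the leading genes. Alternative activation and resolution genes had 20 of 24 higher and a median of 0.12, which was -0.01 without EGCG-treated senEC replicate 5 and 0.21 without control EC replicate 3. ANXA1, which encodes the resolution mediator annexin A1, stood at 334, 368 and 406 CPM with control ECs and at 384, 572 and 431 CPM with EGCG-treated senECs (log2 difference 0.32 ± 0.15, unadjusted p = 0.0478), with overlapping groups, and the difference was 0.14 without EGCG-treated senEC replicate 2. PPARG, the nuclear receptor of lipid handling, stood at 84.7, 77.7 and 82.6 CPM against 88.5, 97.5 and 96.0 CPM, in a list with 20 of 25 higher and a median of 0.11. That median was 0.04 without EGCG-treated senEC replicate 5 and 0.19 without replicate 1. Of 18 monocyte markers, 16 were higher in mean with a median of 0.12, and SPI1, which encodes the myeloid factor PU.1, stood at 267, 265 and 275 CPM against 315, 305 and 320 CPM (log2 difference 0.22 ± 0.11, unadjusted p = 0.0571). The marker median was 0.07 without control EC replicate 2 and 0.20 without EGCG-treated senEC replicate 1.

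**Figure D5:**
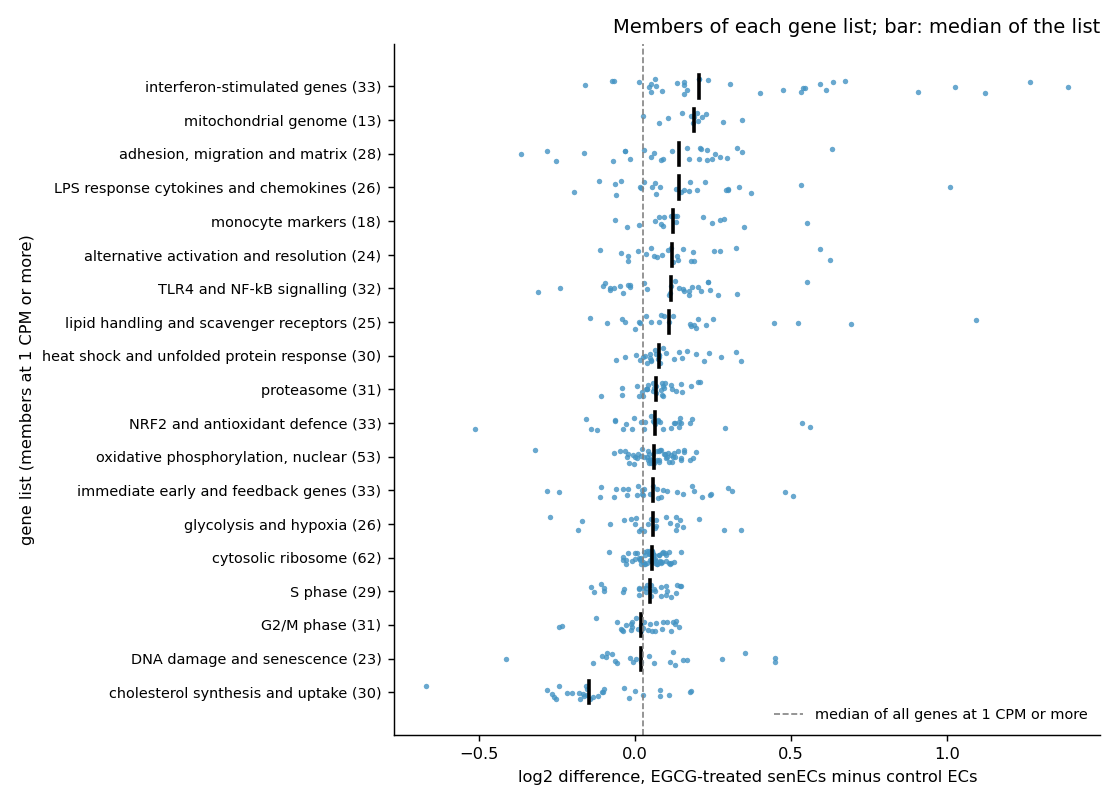
Each point is a list member at 1 CPM or more, placed by its edgeR log2 difference, EGCG-treated senECs minus control ECs, and each bar is the median of the list. The medians run from -0.15 for cholesterol synthesis and uptake to 0.21 for interferon-stimulated genes, and the dashed line marks the median of all genes at 1 CPM or more (0.03). Marker lists of endothelial, fibroblast and lymphocyte cells are not drawn.

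Markers of other cells were read beside these lists. The summed level of 21 detected endothelial markers was 281 to 331 CPM with control ECs and 343 to 398 CPM with EGCG-treated senECs, without overlap. Most of it came from PECAM1, at 148, 148 and 130 CPM against 162, 217 and 163 CPM, and ENG, at 134, 129 and 106 CPM against 143, 132 and 138 CPM. Monocytes express both genes too. Of the markers that define endothelium, VWF held counts in every library, and the counts of all 8 are given with the library totals. The summed level of 7 lymphocyte markers was 27.5 to 30.8 CPM against 34.3 to 45.2 CPM, mostly from NKG7, at 16.2, 15.2 and 14.4 CPM against 17.8, 22.2 and 18.9 CPM, and GNLY, at 8.11, 7.03 and 10.8 CPM against 9.99, 10.9 and 19.4 CPM. For fibroblast and smooth muscle markers the sums were 17.4 to 18.3 CPM and 16.5 to 17.4 CPM. The part of these markers in the results was not tested. No gene had at least 10 counts in all 3 libraries of 1 group and 0 in all 3 of the other.

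Seen beside the other comparisons of the same 12 libraries, this one had as few calls as the others among co-cultures. EdgeR called 0 genes in untreated senECs against control ECs, with 1709 at an unadjusted p below 0.05, and 0 genes in EGCG-treated against untreated senECs, with 575. Against mono-culture it called 37 genes with control ECs, 80 with untreated senECs and 55 with EGCG-treated senECs. These comparisons share libraries in pairs, and the differences between their counts were not tested.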

How the data were processed

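THP1 RNA was sequenced as paired-end mRNA libraries. Per the labels and the study's methods, the authors removed reads with adapters, many unidentified bases or low quality and aligned the rest with HISAT2 to hg38, and deposited raw read counts per gene symbol. The counting program and annotation were not given in the sources used here. Of the columns deposited, 12 matched a sample and 4 were not used. Symbols were matched to GENCODE v29 for length and position, where all 57169 distinct symbols were found, and 175 symbols on several rows were not named. Promoter sequences came from RefSeq (GRCh38.p14).

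Genes with at least 10 counts in total were tested with the quasi-likelihood test of edgeR 4.0.16 (R 4.3.3), without covariates, on all 12 libraries with TMM scaling, so that all 4 groups shared 1 estimate of spread. Benjamini-Hochberg adjustment was over all tested genes, and DESeq2 1.42.0 was an alternative. The scripts were tested on simulated counts. List means and distances between libraries used the log2 of CPM after 2 CPM were added. Replicate libraries differed by more than counting noise. Total counts per library limit precision, and intervals cover the spread between libraries.

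Named were the 14 genes in each direction with the smallest unadjusted p among those at 5 CPM or more without overlap, up to 3 members of each of 22 gene lists with the smallest p, and the inflammatory genes the study named, and some of these genes are not reported here. Members, lists and tests were chosen with earlier results of these data known. Alternatives were other scalings, filters, DESeq2, the 6 libraries alone, a replicate block and each library left out.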

Additional observations from a re-analysis of the deposited data

How the results depend on the processing

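The count of 0 called genes held with DESeq2, DESeq2 size factors, upper quartile scaling, filterByExpr, at least 10 counts in every library, the 6 libraries alone, the length and GC offset, edgeR's bias-adjusted deviances and all but 1 of the libraries left out in turn. It was 43 with every gene that had a count, and 1 (RN7SL2) with replicates 1 and 2 only. In the fit of every gene and that of replicates 1 and 2 with a block the estimated prior degrees of freedom were infinite, so each gene's own spread had no weight there. The replicate numbers were not shown to pair the libraries. Only 2 numbers were shared, and same-numbered libraries' deviations correlated at 0.45 for number 1 and 0.03 for number 2. Between any 2 of the 4 groups, the number 1 libraries correlated at 0.36 to 0.47. Control EC replicate 3 and EGCG-treated senEC replicate 5 correlated at 0.36, and with replicate 1 of the other group at -0.45 and -0.34. The main fit has no term for such shared deviations, so they count there as spread between libraries. With a replicate block 34 genes were called (prior degrees of freedom 1195, against 11.2 without it), 194 with replicates 1 and 2 and a block, and, in fits added after seeing the data, 68 with the block in DESeq2 and 4 with the block and bias-adjusted deviances. Most of the 68 DESeq2 calls had log2 differences of 14.8 to 36.4 in size, such as CNR2 at -30.3, too large to be read as differences. The block fits of edgeR and DESeq2 shared 7 calls, which were BRCA2, GSDMD, RFX2, IDS, MAP1A, PLEKHO2 and VIM. MAP1A was also among the 4 calls with the block and bias-adjusted deviances, as was HIST1H1B.

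The number of genes at an unadjusted p below 0.05 was 692 with filterByExpr and 539 with at least 10 counts in every library, which test fewer genes, 729 with the block in DESeq2 and 2101 with replicates 1 and 2 and a block. Leaving out a library gave 0 to 1 called genes (RN7SL2, without control EC replicate 3) and 706 to 1351 at an unadjusted p below 0.05. Genes without overlap numbered 4760 with replicates 1 and 2 only, with or without the block, and 1462 to 3172 with a library left out, since fewer libraries overlap less often. The share of intervals within 2-fold was 86.2% in DESeq2, 89.2% with every gene, 87.0% with filterByExpr, 91.0% with at least 10 counts in every library, 87.0% in the 6 libraries alone, 88.7% with the block, 83.3% with replicates 1 and 2, 86.8% with these and a block, 82.8% with the block in DESeq2, 89.1% with the block and bias-adjusted deviances, 88.2% with these deviances alone, and 82.7% to 88.3% with a library left out.

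Of 572 list medians under alternatives, 558 moved by less than the spread between replicates. That measure lets a median change sign, so it does not show that the medians were stable. The spread was 0.57 for LPS response cytokines and chemokines. Their change from 0.14 to -0.32 without EGCG-treated senEC replicate 5 is therefore among the 558. The fibroblast list (-0.10) was at -0.15 with at least 10 counts in every library, -0.036 with the block, -0.014 and -0.027 with replicates 1 and 2 without and with it, -0.065 with the offset, -0.051 with the block in DESeq2, -0.029 with the block and bias-adjusted deviances, and -0.21 to -0.053 with a library left out. The endothelial list (0.16) was at -0.046 and -0.044 with replicates 1 and 2 without and with the block. The S phase median was 0.0049 with the block in DESeq2 and -0.00058 to 0.075 with a library left out, and the heat shock median 0.0079 to 0.12. The log2 difference of CXCL8 was -0.094 with the block, -0.11 with it in DESeq2 and -0.10 with the block and bias-adjusted deviances. For IL6 it was 0.37, 0.48 and 0.0068 in these fits, and 1.00 and 1.22 with replicates 1 and 2 without and with the block. With a library left out it ran from -0.74 to 1.06 for IL1B, -0.45 to 0.56 for CXCL8, -0.73 to 1.08 for IL6, -0.31 to 1.10 for IL12B, -0.64 to 0.42 for IL23A, -0.032 to 0.53 for CCL5, -0.16 to 0.46 for TLR4 and -0.091 to 0.43 for NFKB1. The cause of these changes was not tested.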

Other observations

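Some differences larger than those of the leading genes came from 1 library, and their genes were chosen after their values were seen. MT-RNR1, the small ribosomal RNA of the mitochondrion, stood at 778, 3547 and 484 CPM with control ECs and at 731, 804 and 296 CPM with EGCG-treated senECs, and MALAT1, a nuclear long noncoding RNA, at 413, 1300 and 360 CPM against 461, 359 and 308 CPM. Control EC replicate 2 was the highest library for both. The log2 differences were -1.39 and -0.88, and -0.07 and -0.06 without that library. RN7SL2, an RNA of the signal recognition particle, stood at 486, 632 and 187 CPM against 286, 265 and 178 CPM, with control EC replicate 3 close to the EGCG-treated libraries. The replication-dependent histone gene HIST1H1B had 0.86, 9.18 and 0.22 CPM with control ECs and 0.73, 0.70 and 0.11 CPM with EGCG-treated senECs, and HIST2H2BF had 2.45, 14.1 and 0.94 CPM against 1.58, 2.16 and 0.21 CPM, again with control EC replicate 2 far above the rest. MT-RNR1, MALAT1, RN7SL2, HIST1H1B and HIST2H2BF were all called with the replicate block in edgeR.

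Genes that share reads with near-identical copies also stood out in single libraries. BOLA2B had 0.72, 0.88 and 0.72 CPM with control ECs and 1.34, 2.10 and 13.8 CPM with EGCG-treated senECs, and CBSL had 1.06, 0.75 and 11.4 CPM against 0.73, 0.44 and 1.29 CPM. Their counts are uncertain because the counting may split reads between copies. VIM, the intermediate filament vimentin, stood at 9.07, 11.1 and 21.3 CPM against 16.6, 25.0 and 35.7 CPM, low values for a gene that monocytes express strongly. VIM overlaps the antisense gene VIM-AS1, and the part of this overlap in its counts was not tested. VIM was called with the replicate block in both edgeR and DESeq2, although its groups overlapped.

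Below the 5 CPM limit of the leading genes, FBXO27, a substrate receptor of an SCF ubiquitin ligase, had 0.67, 0.44 and 0.56 CPM with control ECs and 1.83, 1.78 and 1.71 CPM with EGCG-treated senECs, a log2 difference of 1.67 ± 0.38 (unadjusted p = 0.000302, edgeR, adjusted p = 0.979). CRIP2, a LIM domain protein, had 2.88, 1.45 and 2.17 CPM against 10.2, 3.43 and 4.87 CPM, with replicate 1 the highest of the EGCG-treated libraries.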
